A study of Mus musculus with 12 samples.

Results

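The germline piRNA pathway genes are 9 germline genes, Mael, Ddx4, Mov10l1, Dazl, Tdrd1, Tdrkh, Piwil1, Piwil2 and Asz1, most of whose products make or use piRNAs, of 18193 genes named on the array. They were chosen by name, with earlier results of these data known, so counts over them are descriptions. Every probe set that the platform annotation assigns to one of these symbols was taken, 11 probe sets in all, 2 each for Dazl and Asz1. The study measured messenger RNA of mouse embryonic stem (ES) cells on Affymetrix Mouse 430_2.0 arrays in 4 genotypes, each with 3 biological replicates on 1 array apiece (12 arrays). The Ring1B deficient cells carry a targeted mutation of Ring1B, encoded by Rnf2, the ubiquitin ligase of Polycomb repressive complex PRC1, and the Eed deficient cells one of Eed, which the PRC2 complex needs to methylate histone H3. The double deficient cells were made by targeting Ring1B in Eed deficient ES cells, and wild type ES cells are the control for all 3. The labels describe 1 line per genotype, so the genotype and the line cannot be told apart in any comparison below. They also say nothing of separate cultures beyond "biological", so p-values measure the spread between these samples.

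PIWI-interacting RNAs (piRNAs) are small RNAs of the germline that guide Piwi proteins, a branch of the Argonaute family, to transposon transcripts and to the genome. Mov10l1 feeds long precursor transcripts into the pathway, Asz1 and Tdrkh hold the processing machinery at the surface of mitochondria, and Mael, Ddx4 and Tdrd1 act with the Piwi proteins in germ granules, where transposon transcripts are cut and silenced. ES cells are not germ cells, and many germline genes are held low in them by DNA methylation and by a variant form of PRC1 that contains Ring1B together with Pcgf6, Mga, Max, L3mbtl2 and E2f6. The comparison of Ring1B loss with Eed loss asks how far the levels of these genes depend on PRC1 and on PRC2.

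Promoter sequences are shown first because Mga with Max and E2f6 are DNA-binding subunits of that variant PRC1, with the E-box CACGTG and E2F-type sites as their known target letters. RefSeq (GRCm38.p6) promoter windows of 250 bases before and 50 bases from the start site were found for 8 of the 9 genes, 10 windows in all. Below are the 250 bases before the start site, 5′ to 3′ on the strand of the gene, for the 4 genes with the E-box letters that rose in Ring1B deficient cells and, for contrast, for Tdrkh, which rose without them, and for Dazl, which was not called. Capitals mark CACGTG, which reads the same on both strands, and TCCCGC or its reverse complement GCGGGA.
Mael, chr1:166238745-166238994, minus strand: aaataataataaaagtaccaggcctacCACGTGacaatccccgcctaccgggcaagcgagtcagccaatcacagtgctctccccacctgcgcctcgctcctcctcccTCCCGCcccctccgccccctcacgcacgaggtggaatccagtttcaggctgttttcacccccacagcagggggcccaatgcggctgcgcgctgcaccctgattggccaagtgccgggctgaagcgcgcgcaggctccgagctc
Ddx4, chr13:112652311-112652560, minus strand: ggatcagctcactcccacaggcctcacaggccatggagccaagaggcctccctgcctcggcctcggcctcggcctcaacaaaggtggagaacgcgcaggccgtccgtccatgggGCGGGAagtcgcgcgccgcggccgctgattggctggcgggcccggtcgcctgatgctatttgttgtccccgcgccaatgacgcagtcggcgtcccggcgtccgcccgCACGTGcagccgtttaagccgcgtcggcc
Mov10l1, chr15:88982744-88982993, plus strand: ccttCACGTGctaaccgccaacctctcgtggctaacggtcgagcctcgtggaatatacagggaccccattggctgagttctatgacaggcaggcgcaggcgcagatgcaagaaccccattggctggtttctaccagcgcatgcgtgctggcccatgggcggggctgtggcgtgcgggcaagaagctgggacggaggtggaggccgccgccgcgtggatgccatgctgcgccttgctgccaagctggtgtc
Tdrd1, chr19:56825959-56826208, plus strand: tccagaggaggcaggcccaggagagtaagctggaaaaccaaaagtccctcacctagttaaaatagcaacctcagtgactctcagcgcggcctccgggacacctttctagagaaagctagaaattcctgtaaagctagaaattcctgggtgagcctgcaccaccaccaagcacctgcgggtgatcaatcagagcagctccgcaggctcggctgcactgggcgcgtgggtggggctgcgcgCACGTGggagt
Tdrkh, chr3:94412994-94413243, plus strand: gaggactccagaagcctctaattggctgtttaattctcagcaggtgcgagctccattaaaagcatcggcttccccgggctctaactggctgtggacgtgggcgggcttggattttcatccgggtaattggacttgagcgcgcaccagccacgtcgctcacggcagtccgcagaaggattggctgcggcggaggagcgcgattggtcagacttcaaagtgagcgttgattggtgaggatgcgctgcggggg
Dazl, chr17:50293621-50293870, minus strand: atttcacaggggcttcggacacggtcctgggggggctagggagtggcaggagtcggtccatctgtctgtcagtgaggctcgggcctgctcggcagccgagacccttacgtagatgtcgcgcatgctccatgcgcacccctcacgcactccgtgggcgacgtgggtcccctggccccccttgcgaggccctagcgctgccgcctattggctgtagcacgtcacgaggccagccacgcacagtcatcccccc

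CACGTG was found in the windows of 5 of the 8 genes, Mael, Ddx4, Mov10l1, Tdrd1 and Piwil1. The first base of the motif lay at -223 in Mael, -29 in Ddx4, -246 in Mov10l1, -11 in Tdrd1 (the first of its 3 annotated start sites, whose window overlaps that of the second) and -179 and -154 in Piwil1, counted from the start site. The E2F core letters TCCCGC or GCGGGA were found in Mael, at -143 and 12, and in Ddx4, at -136, so that Mael and Ddx4 held both motifs. The motifs do not overlap each other in these windows. Of 32851 promoter windows in the table, 7.15% held CACGTG, 19.98% held TCCCGC or GCGGGA and 1.99% held both. Counted per gene, CACGTG was in a window of 11.6% of the 11243 tested genes with one, in 14.9% of the 496 such genes that rose in Ring1B deficient cells and in 11.9% of the 1185 that rose in Eed deficient cells, shares given as a description with no test. The E2F core letters were in a window of 38.2% of the 11243 genes and both motifs in 4.44%, beside 2 of the 8 genes here for each. The best window of each of the 8 genes held 17 to 38 CpG dinucleotides, against a median of 21 over the tested genes. The letters describe these windows and say nothing about which factor is bound there.

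**Figure D1:**
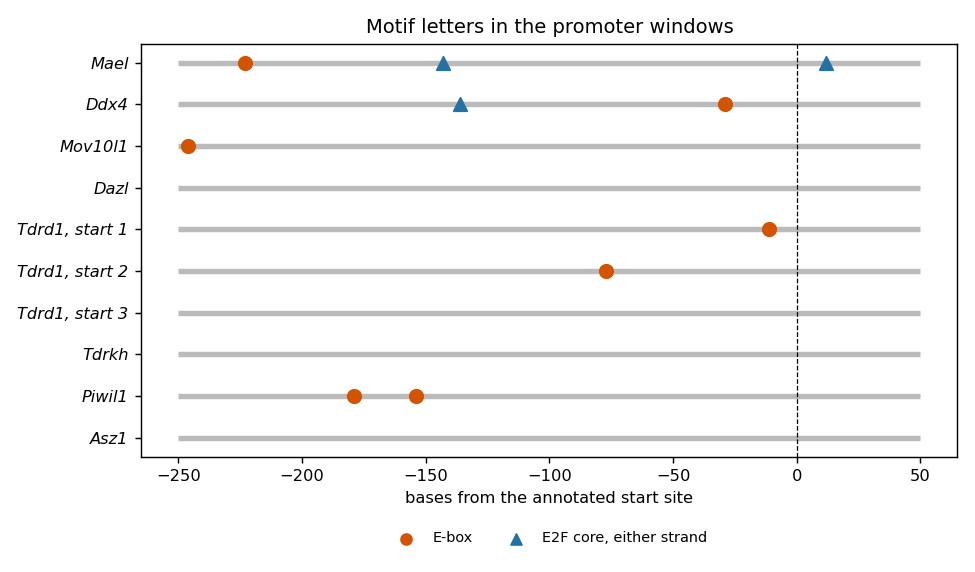
Position of the E-box letters (circles) and of the E2F core letters on either strand (triangles) in each promoter window, in bases from the annotated start site (dashed line); grey bars span the window of 250 bases before and 50 bases from the start. Windows of Dazl, Tdrkh, Asz1 and the third start of Tdrd1 hold neither motif.

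The labelled cell type was checked first. All 12 pluripotent ES cell markers on the array, Pou5f1, Nanog and Sox2 among them, lay above their array's 40th percentile on all 12 arrays, and their summed signal was 21299 to 23783 in Ring1B deficient cells, 18913 to 22884 in Eed deficient cells and 16655 to 19132 in double deficient cells, against 22938 to 25066 in wild type cells. Against wild type, 8 of the 12 fell in double deficient cells, Pou5f1 (-0.82), Nanog (-0.80) and Sox2 (-0.71) among them, and Pou5f1 fell in Eed deficient cells (-0.53). The shares of all tested genes that fell were 11.4% in double deficient cells and 4.55% in Eed deficient cells. The Eed signal was 37.8 ± 13.1 in Eed deficient cells, 71.2 ± 21.0 in double deficient cells and 1642 ± 283 in Ring1B deficient cells, against 1428 ± 159 in wild type cells (SD, n = 3 each). The brightest Rnf2 probe set read 468 ± 65.7 in Ring1B deficient cells, 779 ± 168 in Eed deficient cells and 383 ± 18.8 in double deficient cells, against 851 ± 124 in wild type cells, so Rnf2 transcript was still measured in the cells labelled as Ring1B deficient. A second Rnf2 probe set gave 330.4 ± 23.1 in Ring1B deficient cells against 632 ± 74.6 in wild type cells, and a dimmer one went the other way, at 60.2 ± 8.27 in Ring1B deficient cells against 29.9 ± 7.02 in wild type cells (SD, n = 3 each). Where the Rnf2 probe sets lie relative to the targeted part of the gene is not stated in the labels. A trimmed mean of 100.001 on every array shows that the arrays had been scaled to 1 level, and array medians ran from 19.07 to 28.01 signal units. For the tests, log2(signal + 5) of 13985 genes was fitted with limma, and genes with an adjusted p under 0.05 are described as called. Genes had to exceed the 40th percentile of the array, 12.10 to 19.07 signal units, on 3 or more arrays to be tested. Of the 9 genes, 8 were tested, and Piwil1 lay above that level on 2 of the 12 arrays and was not. Tdrd1 passed through 2 Ring1B deficient arrays and 1 double deficient array alone, so its place among the tested genes rests on arrays where it is high, and the counts below that include it are descriptions.

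In Ring1B deficient cells, 6 of the 8 tested genes rose against wild type, Mael by 3.01 on the log2 scale, Mov10l1 by 2.36, Piwil2 by 1.68, Tdrkh by 1.68, Tdrd1 by 1.66 and Ddx4 by 1.46, and none was called lower. The share of all tested genes called in this comparison was 4.68% higher and 2.5% lower. In Eed deficient cells, 3 of the 8 rose against wild type, Mael by 0.96, Tdrkh by 0.74 and Piwil2 by 0.55, beside 10.8% of all tested genes called higher and 4.55% called lower. In double deficient cells 7 of the 8 rose, all but Dazl, beside 19.5% of all tested genes called higher and 11.4% called lower. The median log2 change over the 8 genes was 1.67 with Ring1B loss, 0.42 with Eed loss and 1.13 with both, where the medians over all tested genes were -0.01, 0.03 and 0.10. No member reached an unadjusted p under 0.05 for a lower level in any of the 3. After centring each array on its median, the numbers of all tested genes called became 1150 higher and 795 lower in Eed deficient cells, where 1509 and 637 were called, and 1691 higher and 3141 lower in double deficient cells, where 2723 and 1588 were called. These 3 comparisons share the wild type arrays.

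**Figure D2:**
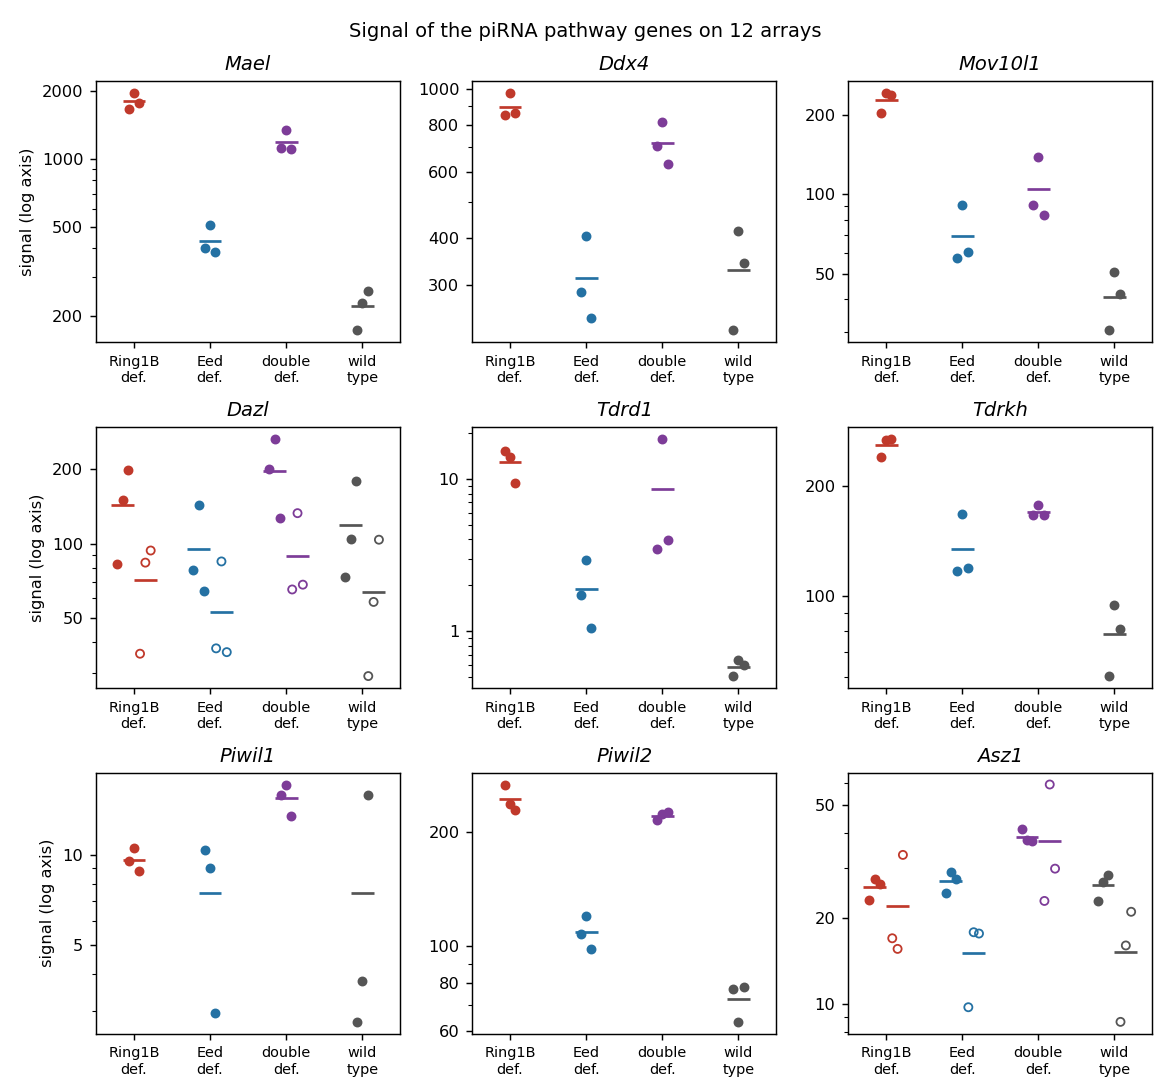
Signal on each array (points, log axis, replicates 1 to 3 from left to right) with the mean (line) in Ring1B deficient, Eed deficient, double deficient and wild type cells; open points are the second probe set of Dazl and Asz1. Mael, Mov10l1, Tdrkh and Piwil2 are highest in Ring1B deficient cells and lowest in wild type cells with no overlap between those groups, while the Dazl points overlap across genotypes.

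Among the genes of piRNA production, Mov10l1 (Entrez gene 83456, chr15:88982891-89055152), the RNA helicase that binds piRNA precursors, had signals of 202, 242 and 238 in Ring1B deficient cells and 57.2, 90.8 and 60.3 in Eed deficient cells. Mov10l1 read 90.8, 139 and 83.6 in double deficient cells and 30.6, 50.6 and 41.9 in wild type cells. All 3 Ring1B deficient arrays lay above every other array, and the Eed deficient arrays lay above the wild type arrays without overlap. Its mean was 227 ± 21.7 in Ring1B deficient cells, 69.4 ± 18.6 in Eed deficient cells, 104 ± 29.9 in double deficient cells and 41.0 ± 10.0 in wild type cells (SD, n = 3 each). This was 5.54 times as high in Ring1B deficient as in wild type cells. The limma change was 2.36 ± 0.23 (SE) in Ring1B deficient cells (adjusted p = 3.09e-05), 0.69 in Eed deficient cells (adjusted p = 0.0577, not called) and 1.24 in double deficient cells (adjusted p = 0.00123). Leaving out wild type replicate 2 or double deficient replicate 2 made the Eed deficient change a call (adjusted p = 0.0396 and 0.0423). Adding replicate number to the fit, which raised the calls over all genes, also made it a call (0.00353).

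Tdrkh (Entrez gene 72634, chr3:94413243-94434854), a Tudor domain protein that anchors Piwi proteins at mitochondria and takes part in trimming piRNA ends, had signals of 239.8, 268 and 270.0 in Ring1B deficient cells and 117, 168 and 119 in Eed deficient cells. Tdrkh read 167, 178 and 167 in double deficient cells and 60.3, 94.7 and 80.9 in wild type cells. The 4 genotypes hardly overlapped: the Ring1B deficient arrays were highest, the wild type arrays lowest, and only Eed deficient replicate 2 reached into the range of the double deficient arrays. Means were 259 ± 16.9 in Ring1B deficient cells, 135 ± 29.0 in Eed deficient cells, 170.5 ± 6.36 in double deficient cells and 78.6 ± 17.3 in wild type cells (SD, n = 3 each). It rose by 1.68 ± 0.18 (SE) in Ring1B deficient cells (limma adjusted p = 7.18e-05), by 0.74 in Eed deficient cells (adjusted p = 0.0131) and by 1.09 in double deficient cells (adjusted p = 0.000542). The call in Eed deficient cells was lost on leaving out wild type replicate 1 (adjusted p = 0.0538) and on leaving out replicate 2 of the Eed deficient cells (0.0582).

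Asz1 (Entrez gene 74068, chr6:18050964-18109061), an ankyrin repeat protein of the mitochondrial outer membrane in germ cells, had signals of 23.2, 27.6 and 26.5 in Ring1B deficient cells and 24.5, 29.0 and 27.5 in Eed deficient cells. Asz1 read 41.2, 37.6 and 37.5 in double deficient cells and 23.1, 27.0 and 28.4 in wild type cells on its brighter probe set. The Ring1B deficient, Eed deficient and wild type arrays overlapped almost fully, and the 3 double deficient arrays lay above all others. Its log2 change was -0.02 in Ring1B deficient cells (limma adjusted p = 0.975), 0.04 in Eed deficient cells (0.899) and 0.49 in double deficient cells (0.0369). The second probe set averaged 22.0 ± 9.89 in Ring1B deficient cells, 15.1 ± 4.64 in Eed deficient cells, 37.3 ± 19.12 in double deficient cells and 15.3 ± 6.26 in wild type cells (SD, n = 3 each), with a double deficient change of 1.02 (adjusted p = 0.0461 in a fit of all kept probe sets). The double deficient call on the brighter probe set was lost on leaving out any wild type or double deficient array, with adjusted p between 0.053 and 0.112, and was also lost after quantile normalization (0.248) or median centring (0.3).

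Of the Piwi proteins, Piwil2 (Entrez gene 57746, chr14:70372477-70436898), the mouse Mili protein that binds piRNAs and cuts transposon transcripts, had signals of 267, 237 and 229 in Ring1B deficient cells and 108, 120.3 and 98.4 in Eed deficient cells. Piwil2 read 215, 223 and 226 in double deficient cells and 77.2, 63.3 and 78.0 in wild type cells. Every Ring1B deficient and double deficient array lay above every Eed deficient array, and every Eed deficient array above every wild type array. Means were 244 ± 20.3 in Ring1B deficient cells, 109 ± 11.02 in Eed deficient cells, 221 ± 5.40 in double deficient cells and 72.8 ± 8.27 in wild type cells (SD, n = 3 each). It rose by 1.68 ± 0.14 (SE) in Ring1B deficient cells (limma adjusted p = 8.11e-06), by 0.55 in Eed deficient cells (0.0175) and by 1.55 in double deficient cells (4.23e-06). The call in Eed deficient cells was lost on leaving out replicate 2 of the wild type (0.0579) or of the Eed deficient cells (0.0713), and after median centring (0.0683).

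Piwil1 (Entrez gene 57749, chr5:128736071-128755474), the mouse Miwi protein of later male germ cells, had signals of 9.52, 10.5 and 8.80 in Ring1B deficient cells and 10.4, 9.04 and 2.96 in Eed deficient cells. Piwil1 read 15.8, 17.1 and 13.4 in double deficient cells and 2.77, 3.79 and 15.8 in wild type cells. These values lay mostly under the 40th percentile of their arrays, and wild type replicate 3 lay within the range of the double deficient arrays. In a fit of all 18193 genes with no filter, its log2 change was 0.38 in Ring1B deficient cells (limma adjusted p = 0.663) and 0.86 in double deficient cells (0.0906), neither called.

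Of the genes that act with the Piwi proteins in germ granules, Mael (Entrez gene 98558, chr1:166201385-166238744), which is needed for transposon silencing in the male germline, had signals of 1662, 1954 and 1766 in Ring1B deficient cells and 403, 508 and 386 in Eed deficient cells. Mael read 1117, 1339 and 1100.3 in double deficient cells and 174, 230.3 and 260.0 in wild type cells. The 4 genotypes did not overlap: the Ring1B deficient arrays were highest, then the double deficient, the Eed deficient and the wild type arrays. Means were 1794 ± 148 in Ring1B deficient cells, 432 ± 65.9 in Eed deficient cells, 1185 ± 133 in double deficient cells and 221 ± 43.9 in wild type cells (SD, n = 3 each), and the Ring1B deficient mean was 8.11 times the wild type mean. The limma change was 3.01 ± 0.16 (SE) in Ring1B deficient cells (adjusted p = 1.05e-07), 0.96 in Eed deficient cells (0.00129) and 2.41 in double deficient cells (2.71e-07). None of these 3 calls was lost in any setting tried.

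Ddx4 (Entrez gene 13206, chr13:112598333-112652633), the germ cell RNA helicase also known as Vasa, had signals of 849, 974 and 862 in Ring1B deficient cells and 288, 406 and 247 in Eed deficient cells. Ddx4 read 705, 813 and 631 in double deficient cells and 228, 419.6 and 344 in wild type cells. The Ring1B deficient and double deficient arrays all lay above the Eed deficient and wild type arrays, and the Eed deficient and wild type arrays overlapped. Means were 895 ± 68.8 in Ring1B deficient cells, 313 ± 82.4 in Eed deficient cells, 716 ± 91.6 in double deficient cells and 331 ± 96.5 in wild type cells (SD, n = 3 each). It rose by 1.46 ± 0.22 (SE) in Ring1B deficient cells (limma adjusted p = 0.000932) and by 1.14 in double deficient cells (0.00143), and its change in Eed deficient cells was -0.06 (0.881).

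Tdrd1 (Entrez gene 83561, chr19:56826171-56870012), a Tudor domain protein that binds Piwi proteins, had signals of 15.2, 13.96 and 9.40 in Ring1B deficient cells and 1.72, 2.91 and 1.05 in Eed deficient cells. Tdrd1 read 3.46, 18.4 and 3.98 in double deficient cells and 0.507, 0.647 and 0.597 in wild type cells. The wild type arrays all read under 1 signal unit, under the 40th percentile of their array, and double deficient replicate 2 stood well above the other 2 double deficient arrays. On the log2(signal + 5) scale, which compresses signals this low, it rose by 1.66 ± 0.38 (SE) in Ring1B deficient cells (limma adjusted p = 0.0175) and by 1.12 in double deficient cells (0.0396), and the change in Eed deficient cells was 0.30 (0.664). The Ring1B deficient call was lost without wild type replicate 1 (0.051) or 3 (0.0507) or Ring1B deficient replicate 1 (0.0635) or 2 (0.0658). The double deficient call was lost without any single wild type array, without double deficient replicate 2 (0.177) or without Ring1B deficient replicate 1 (0.052) or 2 (0.0519), and after quantile normalization (0.0886) or median centring (0.106).

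Dazl (Entrez gene 13164, chr17:50279393-50293620), an RNA-binding protein that promotes translation in germ cells, had signals of 82.5, 150.5 and 199 in Ring1B deficient cells and 78.0, 144 and 64.1 in Eed deficient cells. Dazl read 199.98, 266 and 127 in double deficient cells and 73.6, 105 and 180.4 in wild type cells on its brighter probe set. The arrays of all 4 genotypes overlapped, and replicates within the Ring1B deficient, double deficient and wild type cells differed by more than the genotype means did. Means were 144 ± 58.4 in Ring1B deficient cells, 95.3 ± 42.5 in Eed deficient cells, 198 ± 69.98 in double deficient cells and 119.6 ± 54.9 in wild type cells (SD, n = 3 each), and 71.1 ± 31.0 in Ring1B deficient cells, 52.9 ± 27.6 in Eed deficient cells, 88.8 ± 38.3 in double deficient cells and 63.6 ± 37.7 in wild type cells on the second probe set. No change against wild type was called, with limma changes of 0.26 ± 0.39 (SE) in Ring1B deficient cells (adjusted p = 0.772), -0.30 in Eed deficient cells (0.66) and 0.73 in double deficient cells (0.169). Its standard error of 0.39 was the largest of the 8 genes.

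**Figure D3:**
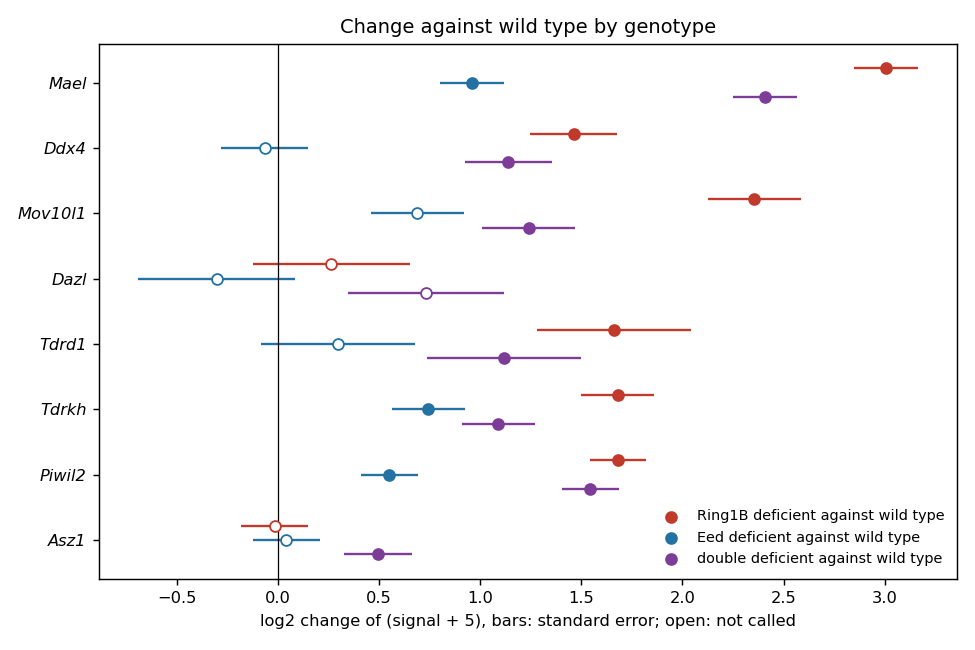
Change of log2(signal + 5) against wild type with its standard error for each tested gene in Ring1B deficient, Eed deficient and double deficient cells; filled points are called at an adjusted limma p under 0.05 and open points are not. The Ring1B deficient change is above the Eed deficient change for 7 of the 8 genes, and Asz1 is the exception.

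The direct comparison of the single mutants sets Ring1B loss against Eed loss, each in 1 line. The genes were listed with earlier results of these data known, so their count and median are given as a description. In Eed deficient cells 5 of the 8 genes were lower than in Ring1B deficient cells. The log2 change was -2.05 for Mael (limma adjusted p = 2.52e-05), -1.67 for Mov10l1 (0.00172), -1.53 for Ddx4 (0.00198), -1.13 for Piwil2 (0.00102) and -0.94 for Tdrkh (0.0117). None was called higher by limma, and 0 reached an unadjusted p under 0.05 in that direction. Of all tested genes, 1.11% were called lower and 3.37% higher in this comparison, and the median change of the 8 genes was -1.25, against 0.05 over all tested genes. The 155 lower and 471 higher genes became 136 and 256 after median centring, 43 and 143 without Ring1B deficient replicate 3 and 49 and 171 without Eed deficient replicate 3. The arrays of the 2 genotypes did not overlap for these 5 genes or for Tdrd1, a separation that was not counted over all tested genes. The Tdrd1 change of -1.37 was not called (limma adjusted p = 0.0612). It was called with replicate number added to the fit (0.0334), which also raised the calls over all genes. The Tdrd1 change was also called with no filter (0.0417), with no intensity trend (0.0358) and without double deficient replicate 2 (0.0275). The change was -0.57 for Dazl (0.491) and 0.06 for Asz1 (0.913), neither called. The call for Tdrkh was lost without Ring1B deficient replicate 3 (0.0564) or Eed deficient replicate 3 (0.0585), and the other 4 calls held without any single array.

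Loss of Ring1B was also compared in cells that already lacked Eed, and 3 of the 8 genes were higher there. In double deficient against Eed deficient cells, Mael rose by 1.45 (limma adjusted p = 0.000912), Ddx4 by 1.20 (0.0131) and Piwil2 by 0.99 (0.00372), and none was called lower. Of all tested genes, 1.07% were called higher and 0.822% lower, which is 150 and 115 genes, against 145 and 186 after quantile normalization and 89 and 323 after median centring. All 8 changes were above 0, and 7 reached an unadjusted p under 0.05, counts that were not taken over all tested genes. The median change of the 8 genes was 0.91, against 0.06 over all tested genes. The other changes were Dazl at 1.03 (adjusted p = 0.186), Tdrd1 at 0.82 (0.287), Mov10l1 at 0.55 (0.231), Asz1 at 0.45 (0.179) and Tdrkh at 0.35 (0.339). Of these, Mov10l1 was called with replicate number added to the limma fit (0.0357), which also raised the calls over all genes. The Ddx4 call was lost without Eed deficient replicate 1 (0.0565) or any double deficient array (0.0512 to 0.0607).

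For Mov10l1, Mael and Tdrkh the change with Ring1B loss was smaller in Eed deficient cells than in cells with Eed. The interaction is the double deficient against Eed deficient change minus the Ring1B deficient against wild type change. It was -1.81 ± 0.32 (SE) for Mov10l1 (limma adjusted p = 0.0123), -1.56 ± 0.23 for Mael (0.00374) and -1.33 ± 0.25 for Tdrkh (0.0168). Those 3 calls were among 1.19% of all tested genes called with a negative interaction, while 0.708% were called with a positive one, 167 and 99 genes, against 279 and 62 after median centring. Among the primitive and visceral endoderm markers described below, 8 of 12 were called with a negative interaction, with a median of -2.11. The median was -0.76 over the 8 genes and 0.06 over all tested genes, so a negative interaction was not particular to these genes. For Ddx4 the interaction was -0.26 (0.705), so its rise of 1.20 on Ring1B loss in Eed deficient cells did not differ detectably from its rise of 1.46 in cells with Eed. Piwil2 had -0.69 (0.0971), Tdrd1 -0.84, Dazl 0.77 and Asz1 0.47, none of them called. With replicate number added to the limma fit, which raised the calls over all genes, the Piwil2 interaction was called (0.0353). Both Tdrkh (0.0503 and 0.0626) and Mov10l1 (0.0504) fell out of the calls without single double deficient arrays, Tdrkh without replicate 1 or 3 and Mov10l1 without replicate 3.

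**Figure D4:**
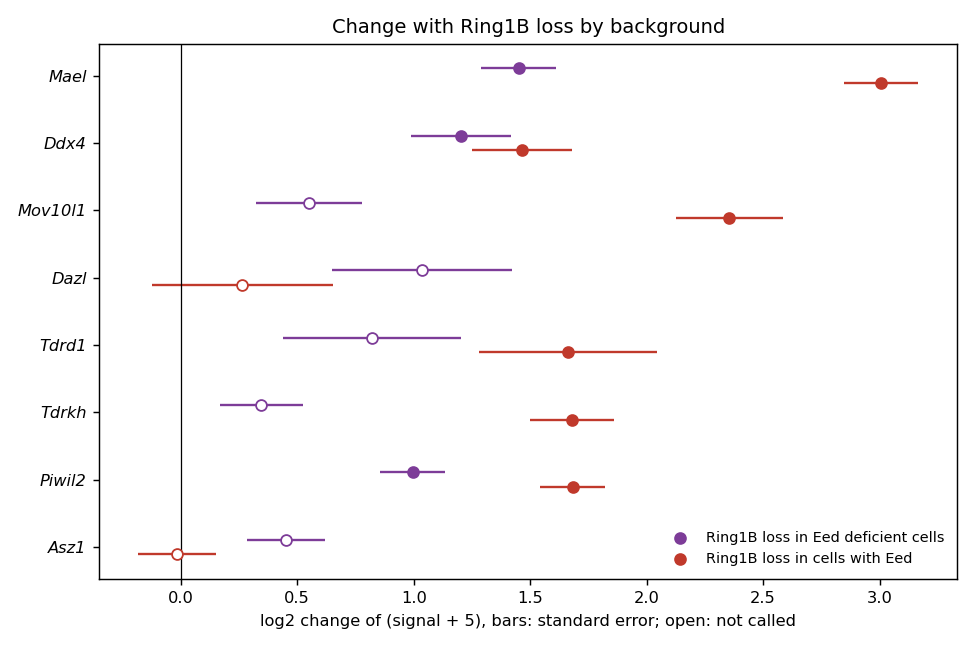
Change of log2(signal + 5) with Ring1B loss, with its standard error, in Eed deficient cells (double deficient against Eed deficient) and in cells with Eed (Ring1B deficient against wild type); filled points are called. The 2 changes lie close for Ddx4, 1.20 and 1.46, and far apart for Mov10l1, 0.55 and 2.36.

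Set against Ring1B deficient cells, double deficient cells had lower Mov10l1 (-1.12, limma adjusted p = 0.00515), Mael (-0.60, 0.0204) and Tdrkh (-0.59, 0.0355) and higher Asz1 (0.51, 0.0466). The shares of all tested genes were 5.98% lower and 12.7% higher, which is 836 and 1781 genes, against 956 and 1299 after quantile normalization and 2225 and 963 after median centring. Ddx4 (-0.32, 0.311), Piwil2 (-0.14, 0.522), Tdrd1 (-0.54) and Dazl (0.47) were not called. Of these calls, that for Mov10l1 alone held in every setting tried. The Mael call was lost without Ring1B deficient replicate 2 or 3 or double deficient replicate 1 or 3 (adjusted p 0.0564 to 0.0856). Tdrkh was lost without any Ring1B deficient or double deficient array (0.0516 to 0.108), and Asz1 without any single array but wild type replicate 1. The median change over all tested genes was 0.11 in this comparison and 0.10 in double deficient against wild type cells, so small changes in double deficient cells, as for Asz1, depend on how the arrays are scaled.

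Among 29 further genes of the pathway, listed with earlier results of these data known, 24 were on the array and 23 were tested. In Ring1B deficient against wild type cells 6 of the 23 rose and 1 fell. Tex15, a partner of the nuclear Piwi pathway, rose by 1.92 (limma adjusted p = 0.0127), Stk31, which carries a Tudor domain, by 1.87 (0.000971), Rnf17 by 0.94 (0.000718) and Gpat2 by 0.85 (0.0486). The helicase Ddx25 rose by 0.78 (0.00439) and Tdrd5 by 0.76 (0.00626), and Piwil4, the nuclear Piwi protein Miwi2, fell by 0.98 (0.0273). With Eed loss 3 rose, Tdrd7 by 2.10 (0.00219), Tex15 by 2.01 (0.00536) and Tdrd5 by 1.08 (0.000244), and 2 fell, Piwil4 by 1.38 (0.00203) and Mov10 by 0.61 (0.0479). Beside these counts stand 4.68% of all tested genes called higher and 2.5% lower with Ring1B loss, and 10.8% higher and 4.55% lower with Eed loss, so the count of 3 of 23 is near the share over all tested genes. The median change of the 23 was 0.29 with Ring1B loss and 0.09 with Eed loss, against -0.01 and 0.03 over all tested genes.

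The level of Stk31 was 309 ± 125 in Ring1B deficient cells, 119 ± 13.5 in Eed deficient cells, 217 ± 38.6 in double deficient cells and 79.4 ± 27.9 in wild type cells (SD, n = 3 each). That of Rnf17 was 563 ± 83.4 in Ring1B deficient cells, 301 ± 16.9 in Eed deficient cells, 383 ± 13.9 in double deficient cells and 289 ± 28.4 in wild type cells (SD, n = 3 each). Both were lower in Eed deficient than in Ring1B deficient cells, with log2 changes of -1.27 for Stk31 (limma adjusted p = 0.0214) and -0.89 for Rnf17 (0.00295). Gpat2 (-1.35, 0.00816) and Ddx25 (-0.65, 0.0219) were lower there too, and none of the 23 was called higher by limma, with 2 at an unadjusted p under 0.05. Tdrd7 was 17.3 ± 5.22 in Ring1B deficient cells, 52.8 ± 12.3 in Eed deficient cells, 77.7 ± 15.2 in double deficient cells and 10.2 ± 8.56 in wild type cells (SD, n = 3 each). Tex15 was 177 ± 103 in Ring1B deficient cells, 182 ± 82.3 in Eed deficient cells, 432 ± 179.7 in double deficient cells and 39.6 ± 11.2 in wild type cells (SD, n = 3 each), so the Eed deficient means of these 2 genes were not below their Ring1B deficient means. Piwil4 was 26.00 ± 2.11 in Ring1B deficient cells, 18.6 ± 3.29 in Eed deficient cells, 9.28 ± 2.03 in double deficient cells and 58.4 ± 21.6 in wild type cells (SD, n = 3 each), highest in wild type cells. In double deficient against wild type cells 6 of the 23 rose and 8 fell, beside 19.5% of all tested genes called higher, which the count of 6 is near, and 11.4% called lower. Among them were Tex15 at 3.22, Tdrd7 at 2.62, Piwil4 at -2.104 and Tdrd12 at -1.95. None of the 23 had an interaction called by limma, and 4 reached an unadjusted p under 0.05, all negative.

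**Figure D5:**
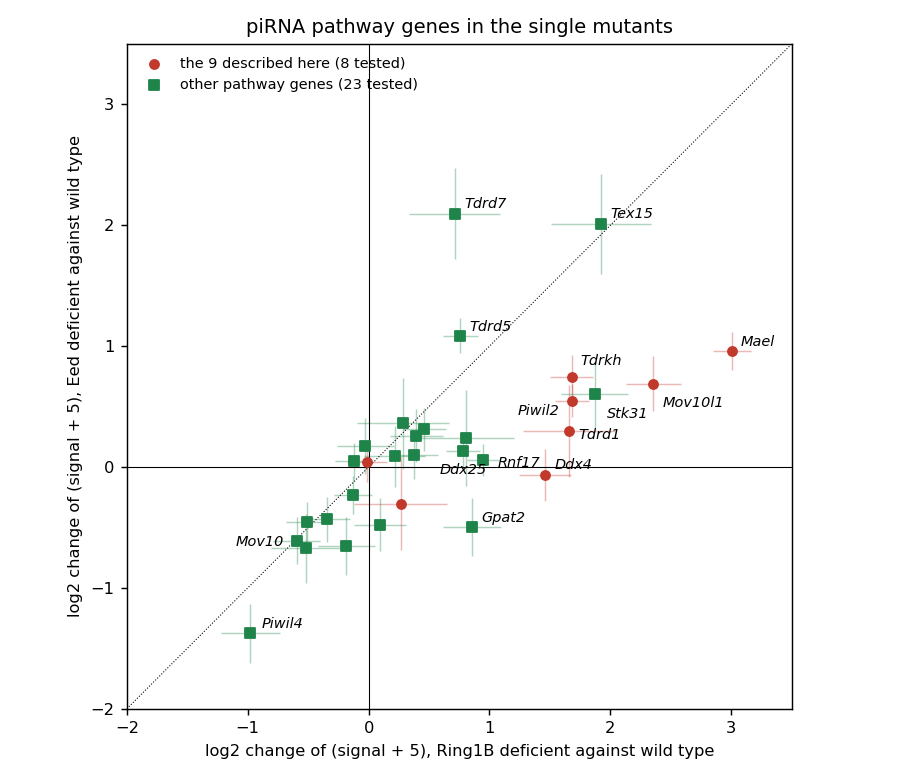
Change of log2(signal + 5) against wild type in Eed deficient cells (vertical axis) and Ring1B deficient cells (horizontal axis), with standard errors, for the 8 tested genes described here (circles) and 23 other pathway genes (squares); the dotted line marks equal change. Names are given where a gene was called in either comparison, and Tdrd7 and Tdrd5 lie above the line while Mael, Mov10l1 and Ddx4 lie below it.

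Of 14 tested genes for subunits of the variant PRC1 complex, E2f6 (0.69, limma adjusted p = 0.0141) and Yaf2 (0.57, 0.0393) rose in Ring1B deficient against wild type cells, and Tfdp2 (-0.53, 0.0471) and Rnf2 itself (-0.86, 0.00626) fell. In Eed deficient against wild type cells, E2f6 (0.59, 0.0185) and Yaf2 (0.74, 0.00555) rose, and Mga (-0.43, 0.0381) and Tfdp2 (-0.59, 0.0165) fell. Of 11 tested genes of the DNA methylation machinery, which also acts on germline promoters, Tet1, an enzyme that oxidises methylated cytosine, fell in Ring1B deficient cells (-1.28, 0.0472), and none was called by limma in Eed deficient cells, where 1 reached an unadjusted p under 0.05. In double deficient against wild type cells, Dnmt1, the maintenance methyltransferase, fell (-0.63, 0.0121), as did its partner Uhrf1 (-0.56, 0.0199). Neither was called in Ring1B deficient cells, with Dnmt1 at -0.34 (limma adjusted p = 0.266) and Uhrf1 at -0.36 (0.236). Of 11 PRC2 subunits, none was called in Ring1B deficient cells, with 1 at an unadjusted p under 0.05, and Eed (-5.10, 2.49e-08) and Rbbp4 (-0.36, 0.0138) fell in Eed deficient cells. In double deficient against wild type cells 2 of the 14 variant PRC1 genes were called higher and 3 lower, and 3 of the 11 PRC2 genes lower. The targeted genes Rnf2 and Eed were among those lower. Of all tested genes, 19.5% were called higher and 11.4% lower there, and the 2 of 14 do not exceed that share. The part of these genes in the changes of the piRNA pathway genes was not tested.

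Markers of germ cells and of other cell types were read beside these results, since in bulk RNA more cells of a type and more RNA per cell cannot be told apart. All 9 primordial germ cell markers measured lay above the 40th percentile in every genotype. Their summed signal was 5855 to 7157 in Ring1B deficient cells, 6598 to 7459 in Eed deficient cells, 6480 to 7458 in double deficient and 7168 to 8217 in wild type cells. Prdm1 and Ifitm3 fell in Ring1B deficient against wild type cells (-0.97 and -0.79). Of 10 spermatocyte markers, 9 were tested. In Ring1B deficient cells 3 of the 9 rose, Tex101 (2.86), Tex11 (2.76) and Sycp2 (1.79), and none was called lower by limma (1 at an unadjusted p under 0.05), with Hormad1 at -1.05 (adjusted p = 0.0782) and Sycp3 at -0.43 (0.651). In Eed deficient cells Tex11 (1.05) and Sycp2 (0.93) rose and Hormad1 fell (-2.01, 0.00123). Double deficient cells had 4 of the 9 higher and 2 lower, Hormad1 (-1.81) and Stag3 (-1.01). Of all tested genes, 4.68%, 10.8% and 19.5% were called higher in Ring1B deficient, Eed deficient and double deficient against wild type cells. In the same order, 2.5%, 4.55% and 11.4% were called lower. The summed signal of the 10 spermatocyte markers was 1360 to 1794 in Ring1B deficient cells, 818 to 1479 in Eed deficient cells and 970 to 1663 in double deficient cells, against 744 to 1719 in wild type cells, and Spo11 lay below the 40th percentile on every array. Of the spermatid markers, Prm2, Tnp1, Tnp2, Acrv1 and Pgk2 lay below the 40th percentile on every array. The summed signal of 10 spermatid markers was 108 to 134 in Ring1B deficient cells, 75.6 to 85.8 in Eed deficient cells and 100.2 to 130.1 in double deficient cells, against 83.7 to 130.5 in wild type cells. Of 8 spermatogonium markers, Rhox13 rose (2.17) and Gfra1 fell (-1.22) in Ring1B deficient cells, and the sum was 1062 to 1284 there, 955 to 973 in Eed deficient cells and 1396 to 1461 in double deficient cells, against 748 to 1018 in wild type cells. The 9 oocyte markers summed to 138 to 164, 123 to 149 and 158 to 178 in the same 3 mutants, against 139 to 179 in wild type cells, and Bmp15 and Nlrp5 lay below the 40th percentile on every array. The part of germ cell markers in the results was not tested.

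Markers of 2 cell types outside the germline moved with the mutant genotypes. The 12 primitive and visceral endoderm markers summed to 3049 to 4169 in Ring1B deficient cells, 3837 to 6667 in Eed deficient cells and 6366 to 7169 in double deficient cells, against 359 to 449 in wild type cells, where Sox7, Foxa2, Ttr and Afp lay below the 40th percentile on all 3 arrays. Of these 12, 10 rose in Ring1B deficient cells, 11 in Eed deficient cells and 11 in double deficient cells, beside 4.68%, 10.8% and 19.5% of all tested genes. The 12 fibroblast and feeder cell markers summed to 615 to 879 in Ring1B deficient cells, 1149 to 3066 in Eed deficient cells and 2764 to 3221 in double deficient cells, against 775 to 932 in wild type cells, and Eed deficient replicate 3 alone gave the upper value. Of these 12, 0 were called by limma in Ring1B deficient cells (1 at an unadjusted p under 0.05), 3 rose in Eed deficient cells and 10 in double deficient cells. The same shares of all tested genes stand beside these counts. Both sums were higher in double deficient than in Ring1B deficient cells. Of the 8 tested piRNA pathway genes, 3 were called lower in that comparison, 1 was called higher and 4 were not called. For the interaction, 8 of the 12 endoderm markers were called negative and 0 positive, beside 1.19% and 0.708% of all tested genes. The part of these markers in the changes of the piRNA pathway genes was not tested.

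Replicate number moved with the signals of these genes. Over the 8 tested genes and 4 genotypes, 28 of 32 values of replicate 2 lay above their genotype mean, with a median deviation of 0.135 on the log2 scale, against 5 of 32 for replicate 1 and 14 of 32 for replicate 3, while the median deviation over all tested genes was near 0 for each number. The part of replicate 2 in the results was measured by leaving it out of every genotype, a setting chosen after seeing the data. Against wild type, 5 genes were then called higher in Ring1B deficient cells, 2 in Eed deficient cells and 5 in double deficient cells. With every replicate these counts were 6, 3 and 7, beside 4.68%, 10.8% and 19.5% of all tested genes called higher. The shares of all tested genes called higher without replicate 2 are not given here, so these counts are descriptions. In Eed deficient against Ring1B deficient cells 5 of the 8 genes were lower without replicate 2, and 3 had a negative interaction. Calls over all tested genes fell as well in some comparisons. In Ring1B deficient against wild type cells 350 lower became 224. For Eed deficient against Ring1B deficient cells 155 lower and 471 higher became 74 and 291. Negative interactions went from 167 to 102 and positive ones from 99 to 49.

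Tested genes outside the members were ranked by how like Mael their profile over the 12 arrays was. Pearson's correlation of log2 values was used, as a description of arrays that share their genotype means. Among the tested members, left out of this ranking, the correlation with Mael ran from 0.36 for Asz1 to 0.977 for Piwil2. The most alike outside the members were Tada1 (r = 0.97), Tex11 (0.968), Boll (0.949), Abhd6 (0.943) and Pus7l (0.939). Tex11, a meiosis gene of the X chromosome, had mean signals of 468 in Ring1B deficient cells, 138 in Eed deficient cells and 387 in double deficient cells, against 67.4 in wild type cells, and Boll, an RNA-binding protein of the Dazl family, had 135, 39.7 and 94.1, against 34.2 in wild type cells. With the mean standardised profile of the 8 tested genes, the most alike outside the members were Rhox13 (0.959), Slc25a31 (0.955), Tex101 (0.954), Tada1 (0.942) and Tex11 (0.934). Rhox13, a homeobox gene of male germ cells, had mean signals of 443 in Ring1B deficient cells, 145 in Eed deficient cells and 587 in double deficient cells, against 95.5 in wild type cells, so that its highest level, unlike that of Mael, was in double deficient cells.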

How the data were processed

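Messenger RNA of 12 ES cell samples was measured on Affymetrix Mouse 430_2.0 arrays. The authors deposited intensity values from MAS5, as the submitters' processing notes say, on a linear scale. The MAS5 version and settings were not given in the sources used here. No further normalization was applied. Probe sets with 1 symbol and at least 3 of 12 arrays above the array's 40th percentile were kept, the brightest probe set of each gene was taken, and log2(signal + 5) of 13985 genes was fitted with limma 3.58.1 in R 4.3.3, with 1 mean per genotype and an intensity trend. P-values were adjusted by the Benjamini-Hochberg method over all genes tested. The method was tested on simulated data with independent noise on each array, which held no spread shared by replicate number, unlike the real arrays.

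The members and lists were chosen with earlier results of these data known. The text names every member, Rnf2 and Eed, and up to 6 genes per other list by size of change. It also names the 5 genes outside the members most like Mael or the members' mean profile. Other names, such as those of single markers and of Tdrd12, were chosen after their values were seen. Alternatives were quantile normalization, median centring, other added values, no filter or a stricter one, all probe sets, only the compared arrays, no trend, a replicate block, and leaving out arrays. Same-numbered arrays of 2 genotypes had deviations that correlated at -0.0477 to 0.614, over 0.1 in 13 of 18 pairs. The own number was best in 27 of 36 cases, so part of the spread went with replicate number. The labels name no shared source for a number, so the main fit left it out, and the block is given as an alternative that adds calls. The number of arrays limits the precision.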

Additional observations from a re-analysis of the deposited data

Results flagged for a closer look

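For 3 genes the change with Ring1B loss differed between Eed deficient cells and cells with Eed, by the interaction term of the limma model over all 13985 genes. The difference in log2 change was -1.81 for Mov10l1 (adjusted p = 0.0123), -1.56 for Mael (0.00374) and -1.33 for Tdrkh (0.0168). The change with Ring1B loss was 0.55, 1.45 and 0.35 in Eed deficient cells, against 2.36, 3.01 and 1.68 in cells with Eed. Their signals in Eed deficient cells were higher on average than in wild type cells, at 69.4 ± 18.6 against 41.0 ± 10.0 for Mov10l1, 432 ± 65.9 against 221 ± 43.9 for Mael and 135 ± 29.0 against 78.6 ± 17.3 for Tdrkh (SD, n = 3 each). Negative interactions were not particular to these genes, and were also called for 8 of 12 primitive and visceral endoderm markers.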

How the results depend on the processing

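With the replicate block, 6, 4 and 7 of the 8 genes were called higher in Ring1B deficient, Eed deficient and double deficient against wild type cells, 6 were lower in Eed deficient than in Ring1B deficient cells, 4 were higher in double deficient than in Eed deficient cells, and 4 had a negative interaction; the limma calls it added were Mov10l1 in Eed deficient against wild type cells (adjusted p = 0.00353) and in double deficient against Eed deficient cells (0.0357), Tdrd1 in Eed deficient against Ring1B deficient cells (0.0334) and the Piwil2 interaction (0.0353). The block also raised the calls over all genes, to 2295 higher and 1493 lower in Eed deficient against wild type cells (1509 and 637 without it), 3492 and 2410 in double deficient against wild type cells (2723 and 1588), 1142 and 564 in Eed deficient against Ring1B deficient cells (471 and 155), 655 and 648 in double deficient against Eed deficient cells (150 and 115) and 541 and 719 for the interaction (99 and 167). Deviations of same-numbered arrays correlated at 0.165 or more for number 1, at 0.265 or more for number 2 and down to -0.0477 for number 3, and the own number was best in 27 of 36 cases and, for 6 of 12 arrays, in every other genotype. The count called higher in double deficient against Ring1B deficient cells was 1 and became 0 after quantile normalization, after median centring, with no filter, with the filter at the 60th percentile, with all kept probe sets and with only the compared arrays, and ran from 0 to 1 on leaving out arrays; the count called lower there ran from 1 to 3, with 1 without Ring1B deficient replicate 2 or 3 or double deficient replicate 1 or 3. Over all tested genes, the 836 lower calls in double deficient against Ring1B deficient cells became 546, 482, 448 and 341 without those arrays, in the same order. In Eed deficient against wild type cells the count of 3 became 1 with only the compared arrays, and was 1 without Eed deficient replicate 2. With only the compared arrays, the 1509 higher and 637 lower calls over all genes there became 986 and 311. Without Eed deficient replicate 2 the lower calls became 398. The negative interactions fell to 1 without double deficient replicate 3, where those over all genes fell from 167 to 61. No change of a member reversed its sign past the threshold. Counts over all genes depended on scaling: median centring gave 1691 higher and 3141 lower genes in double deficient against wild type cells, where 2723 and 1588 were called, and the block gave 1276 and 948 in Ring1B deficient against wild type cells, where 655 and 350 were called. The cause of these shifts was not tested.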
